A study of Mus musculus with 7 samples.

Results

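Oxidative phosphorylation (OXPHOS) is carried out by 5 enzyme complexes of the inner mitochondrial membrane, and their subunits are coded by 2 genomes. OXPHOS genes were taken as the protein-coding genes of the count table with symbols of the *Nduf*, *Sdh*, *Uqcr*, *Cox4* to *Cox8*, *Atp5* and mitochondrial *mt-Nd*, *mt-Co*, *mt-Atp* and *mt-Cytb* series. The rule found 106 of 38124 genes, and it used no measured value. Of these, 13 lie on the mitochondrial DNA and 93 in the nucleus, where 83 code for subunits and 10 for assembly or supercomplex factors. *Cyc1*, the cytochrome c1 subunit of complex III, has another kind of symbol and is counted below among the electron carriers.

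Complexes I (NADH dehydrogenase) and II (succinate dehydrogenase) pass electrons to coenzyme Q, complex III passes them to cytochrome c, and complex IV (cytochrome c oxidase) passes them to oxygen. Complexes I, III and IV pump protons, and complex V (ATP synthase) lets them flow back to make ATP. The mitochondrial genome codes for core membrane subunits of complexes I, III, IV and V, whereas all other subunits, including the whole of complex II, are made from nuclear genes and imported. In the developing neocortex, neural progenitors are known to rely strongly on glycolysis, and OXPHOS gains weight as neurons form.

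RNA-Seq was performed on RFP-positive cells sorted from E15.5 neocortex of heterozygous *Tis21*-CreERT2 mouse embryos, 48 hr after in utero electroporation at E13.5. The 3 control libraries (replicates 1, 2 and 4) came from neocortex given a construct for conditional expression of nuclear RFP, and the 4 libraries labelled Sox9 (replicates 1 to 4) from neocortex given the same kind of construct that also encodes Sox9, a transcription factor of neural progenitors. In both groups, tamoxifen was given before electroporation, so that Cre, which is driven by *Tis21* in progenitors that are about to produce basal progenitors or neurons, switched on the construct. Per the study's methods, each sort used the cells with the strongest RFP signal and pooled cortices of several embryos, so a library is a mixture of targeted progenitors and their progeny, and fewer cells of a type and less RNA per cell cannot be told apart. The labels call every library a biological replicate. Tests measure the spread between these libraries, which covers embryos, sorting and amplification together.

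The libraries held 4429704 to 12907778 counts, with a median of 11592511 in the control and 7428918 in the Sox9 group (two-sided exact permutation test over 35 assignments, p = 0.0857). For the *Sox9* gene, the control libraries gave 362, 1026 and 668 counts, whereas 370, 435, 277 and 177 were found where the label says Sox9 (log2 fold change -0.68 ± 0.25 (SE), adjusted p = 0.0493 by edgeR). Its level was therefore not higher in the Sox9 libraries, and that name refers to their labels. The study's own qPCR found *Sox9* mRNA highest in the strongly RFP-positive cells of Sox9-electroporated neocortex, a difference that these counts do not show. Of the markers tested, 5 of 11 radial glial and 3 of 9 intermediate progenitor genes were lower in the Sox9 group, and 2 of 8 endothelial, 2 of 6 mural and meningeal, 1 of 9 microglial and 1 of 6 erythroid genes were higher, at an adjusted p-value under 0.01, where 11.3% of all genes tested were called higher and 3.43% lower. Among the 5694 genes with an average log2 CPM under 2, 22.7% were called higher. Of 13 neuronal genes, edgeR called 0, with 5 at an unadjusted p-value under 0.05 (44.0% of all genes), and DESeq2 called 1 lower (5.65% of all genes). The summed level of the radial glial list was 837 to 1339 CPM (counts relative to the library's total, scaled by TMM, a normalization that aligns the bulk of genes between libraries) in control and 499 to 624 CPM in the Sox9 libraries. The part of these differences in the OXPHOS values below was not tested.

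Not all mitochondrial mRNAs could be read from the count table. *mt-Cytb*, the cytochrome b of complex III, had 12954 to 25949 counts per library and *mt-Nd1*, a core membrane subunit of complex I, had 9536 to 20600. *mt-Nd2*, *mt-Nd4*, *mt-Nd5* and *mt-Nd6*, which are also complex I subunits, and *mt-Co1*, the catalytic subunit of complex IV, had 704 to 5694 counts in every library. In contrast, *mt-Co2* and *mt-Co3* of complex IV, *mt-Atp6* and *mt-Atp8* of complex V and *mt-Nd4l* of complex I were listed at 0 in all 7 libraries, and *mt-Nd3* had 2 to 8 counts. All 13 genes are transcribed as parts of long precursors, and the genes at 0 lie between *mt-Co1* and *mt-Nd4*, which both had 2269 or more counts.

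**Figure D1:**
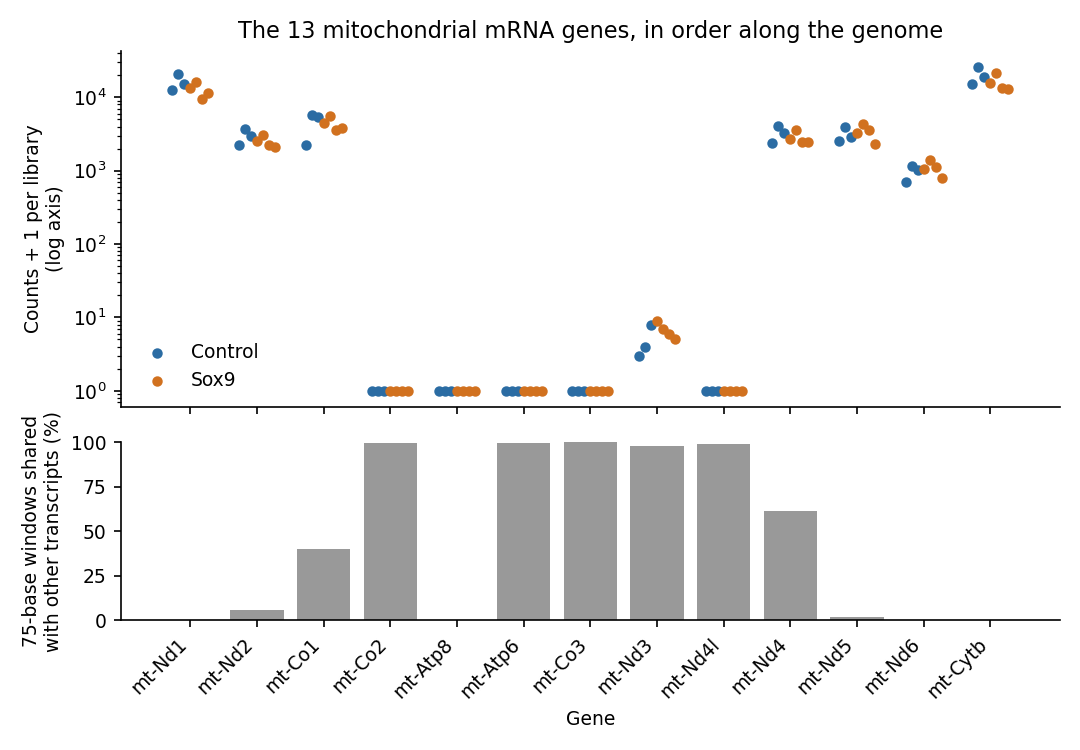
Upper panel, counts plus 1 of each mitochondrial mRNA gene in each of the 7 libraries (log axis; blue, control; orange, Sox9). Lower panel, percent of the gene's 75-base windows that also occur in another annotated transcript. The 6 genes with at most 8 counts lie next to each other, and 5 of them shared 97.8% to 99.9% of their windows, whereas *mt-Atp8* shared none.

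The reads were 75 bases long, so all 75-base windows of each gene were looked up in the GENCODE M21 transcripts (GRCm38). *mt-Co3* shared 99.9% of its windows with another transcript, *mt-Co2* and *mt-Atp6* 99.5% each, *mt-Nd4l* 98.7% and *mt-Nd3* 97.8%. *mt-Nd4* shared 61.5%, *mt-Co1* 39.8%, *mt-Nd2* 5.7% and *mt-Nd5* 1.7%, while *mt-Nd1*, *mt-Nd6* and *mt-Cytb* shared none. The partners were mainly 7 unprocessed pseudogenes on chr1:24611535-24616197 (minus strand), where the nuclear genome holds a copy of this stretch of mitochondrial DNA. Of the 7, only *Gm10222*, the counterpart of *mt-Nd4l*, is in the count table. *mt-Atp8* was the exception, since it shared 0 of 130 windows with an annotated transcript. It lies after *mt-Co2*, and its end (chrM:7766-7969) overlaps the start of *mt-Atp6* (chrM:7927-8607) on the same strand. On chromosome 1, the stretch between *Gm28661* and *Gm10925* carries no annotated gene. How reads that align to both genomes, or that fall where 2 genes overlap, were counted is not given in the sources used here. Whether this set the counts to 0 was not tested. The values at 0 are therefore not read as absence of these mRNAs.

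The first 75 bases of 4 of these genes are shown because they are what a read of this length would have to be placed by. For *mt-Co2* (chrM:7013-7087), *mt-Atp6* (chrM:7927-8001) and *mt-Co3* (chrM:8607-8681), the same letters stand on chromosome 1 at chr1:24615491-24615565, chr1:24614577-24614651 and chr1:24613897-24613971. For *mt-Nd3* (chrM:9459-9533), the copy *Gm28438* (chr1:24613045-24613119) differed at 1 position, in capitals, which was its only mismatch over 345 aligned bases.
mt-Co2: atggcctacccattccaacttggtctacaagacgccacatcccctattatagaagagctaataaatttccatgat
mt-Atp6: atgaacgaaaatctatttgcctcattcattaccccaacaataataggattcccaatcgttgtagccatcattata
mt-Co3: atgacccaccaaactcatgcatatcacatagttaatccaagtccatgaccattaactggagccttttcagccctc
mt-Nd3: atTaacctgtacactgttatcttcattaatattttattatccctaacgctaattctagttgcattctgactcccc
Gm28438: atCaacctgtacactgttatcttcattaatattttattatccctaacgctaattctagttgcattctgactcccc

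The 7 mitochondrial mRNAs that could be tested all had log2 fold changes above 0 in the Sox9 libraries, with a median of 0.29 and a range of 0.16 to 0.66. Of these, 2 were called higher at an adjusted p-value under 0.01 (edgeR's quasi-likelihood test, Benjamini-Hochberg adjustment over 16522 genes) and 0 lower, where 11.3% of all genes tested were called higher and 3.43% lower. Among the 1681 genes of the same range of expression, 7.85% had a log2 fold change above 0, their median was -0.27, and 7 were called higher, the 2 mitochondrial mRNAs among them.

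*mt-Nd5* (chrM:11742-13565), a proton-pumping membrane subunit of complex I, was at 242, 344 and 295 CPM in control and at 443, 408, 396 and 484 CPM in the Sox9 libraries. Every Sox9 library was above every control library, and the log2 fold change was 0.56 ± 0.13 (SE; adjusted p = 0.00625). *mt-Nd6* (chrM:13552-14070), the complex I subunit coded on the other strand, was at 67.3, 99.1 and 105 CPM in control and at 145, 133, 124 and 169 CPM in the Sox9 libraries. These groups did not overlap either, and the log2 fold change was 0.66 ± 0.16 (SE; adjusted p = 0.00737). The ends of *mt-Nd5* and *mt-Nd6* overlap on opposite strands, and no step that marks the strand is described, so reads from *mt-Nd6* and from transcripts running across it from *mt-Nd5* cannot be told apart. The adjusted p-value of *mt-Nd5* was at most 0.0384 and that of *mt-Nd6* at most 0.0381 under 19 alternative settings, but with 1 library left out, *mt-Nd5* kept its call only without control replicate 2 or Sox9 replicate 3, and *mt-Nd6* only without control replicate 4 or Sox9 replicate 3.

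*mt-Co1* was at 217, 495 and 544 CPM in control and at 618, 521, 397 and 807 CPM in the Sox9 libraries. Control replicate 1 was the lowest and Sox9 replicate 4 the highest, the groups overlapped, and the log2 fold change of 0.48 ± 0.26 (SE) did not pass the test (adjusted p = 0.174). *mt-Cytb* was at 1465, 2255 and 1925 CPM in control and at 2150, 2033, 1509 and 2717 CPM in the Sox9 libraries, with a log2 fold change of 0.16 (adjusted p = 0.521). *mt-Nd1* was at 1217, 1790 and 1553 CPM in control and at 1857, 1527, 1066 and 2384 CPM in the Sox9 libraries (log2 fold change 0.17, adjusted p = 0.568). Both sets of values overlapped over most of their range. *mt-Nd2* and *mt-Nd4* had log2 fold changes of 0.25 and 0.29 (adjusted p = 0.304 and 0.263), also with overlap. Control replicate 1 was the lowest of the 7 libraries in 6 of the 7 genes, the exception being *mt-Nd1*, which was lowest in Sox9 replicate 3. Without control replicate 1, the median of the 7 genes was 0.10, 6 of 7 were above 0 and edgeR called 0, with adjusted p-values of 0.0384 for *mt-Nd5* and 0.0360 for *mt-Nd6*. DESeq2 on all 7 libraries called 1, *mt-Nd6*.

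Per length of mRNA and over all 7 libraries, *mt-Cytb* (1755 CPM per kb) and *mt-Nd1* (1701 CPM per kb) stood above every other OXPHOS gene that could be read. The other 5 testable mitochondrial mRNAs were at 205 to 333 CPM per kb. The whole CPM of a gene was also divided by its windows that occur nowhere else. This gave 686 CPM for *mt-Nd4* and 581 CPM for *mt-Co1* per 1000 windows, against 339 CPM for *mt-Nd2*, 271 CPM for *mt-Nd6* and 217 CPM for *mt-Nd5*. Such a scale takes reads from shared windows as left out, and whether they were is not given. Reverse transcription started at poly-A tails, so these levels also follow how well each mRNA was primed, which was not tested.

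Nuclear subunit mRNAs were at a median of 174 CPM per kb over the 79 that passed the filter on low counts. Whether reads in introns were counted is not stated, and CPM per kb of mRNA takes the counts as exonic, a limit on every level per length of a nuclear gene given here. The highest was *Cox4i1* of complex IV (714 CPM per kb), a subunit that every cell uses, followed by *Atp5o* of complex V (679 CPM per kb), which sits in the stalk of the synthase and shared 34.2% of its windows with other transcripts, an antisense one among them. By complex, the highest nuclear members were *Ndufa7* (391 CPM per kb) in complex I, *Sdhb* (381) in complex II, *Uqcrq* (509) in complex III, *Cox4i1* in complex IV and *Atp5o* in complex V. The median was 145 CPM per kb for complex I, 134 for complex II, 298 for complex III, 226 for complex IV and 285 for complex V. The 8 complex I assembly factors, which build the enzyme but do not stay in it, were at a median of 24.9 CPM per kb.

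Some subunits were counted far below others of the same complex. *Uqcrfs1*, the Rieske iron-sulfur protein of complex III, was at 10.98 CPM per kb against 357 for *Uqcrc1*, a core protein of the same complex. *Cox5a* of complex IV was at 22.01 CPM per kb, and *Atp5l* of complex V and *Ndufab1* and *Ndufb4* of complex I, which were singled out after their values were seen, at 10.1, 15.5 and 20.4 CPM per kb. *Ndufb4* shared 17.2% of its windows with other transcripts, *Ndufab1* 8.1%, *Atp5l* 6.2%, *Cox5a* 5.9% and *Uqcrfs1* none. *Cox5a* also varied widely among controls, with 387, 105 and 28 counts there and 24, 122, 157 and 86 counts in the Sox9 libraries. In CPM these were 36.99, 9.12 and 2.85 against 3.30, 11.5, 17.6 and 18.03, so the spread within control exceeded the difference between the groups (log2 fold change -0.38 ± 0.61 (SE), adjusted p = 0.668; 1.03 without control replicate 1). *Cox5a* overlaps *Gm26631*, a transcript of the other strand.

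Nuclear subunit mRNAs were called in 2 of 79 cases, 1 higher and 1 lower, where 11.3% and 3.43% of all genes tested were called. Their log2 fold changes were small and mostly of 1 sign under TMM scaling: 74 of 79 were below 0, with a median of -0.25, and 28 of 79 had an unadjusted p-value under 0.05, against 44.0% of all genes tested and 49.0% of those with an average log2 CPM of 6 to 10. In 28 of 79, every Sox9 library was below every control library, and in 4 every Sox9 library was above, against 16.4% and 22.9% of all genes tested. The number of calls depended on the tool and on single libraries: DESeq2 called 1 higher and 8 lower of 81 (8.75% and 5.65% of the 22497 genes it adjusted), cyclic loess with limma called 0, and without Sox9 replicate 2 edgeR called 3 higher.

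The level of expression moves with this shift. Among the 3082 genes with an average log2 CPM of 6 to 10, the median log2 fold change was also -0.26, 89.6% were below 0 and in 45.4% every Sox9 library was below every control library. EdgeR called 8.08% of them lower and 0.584% higher. Of the nuclear subunit genes, 64 lay in that range, and 27 of these (42.2%) had every Sox9 library below every control library, a share near that of the range. Weakly expressed genes went the other way: the 5694 genes with an average log2 CPM under 2 had a median of 1.37, and 22.7% of them were called higher. Of these, 4015 passed the filter on low counts (at least 0.956 CPM, before TMM, in at least 3 libraries) in 3 or more Sox9 libraries but in fewer than 3 control libraries, so that they entered the test only through the Sox9 group, and that share is conditioned on high values there. Sox9 libraries also showed counts in more genes, 24219 to 27370 against 23387 to 23791 in control.

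**Figure D2:**
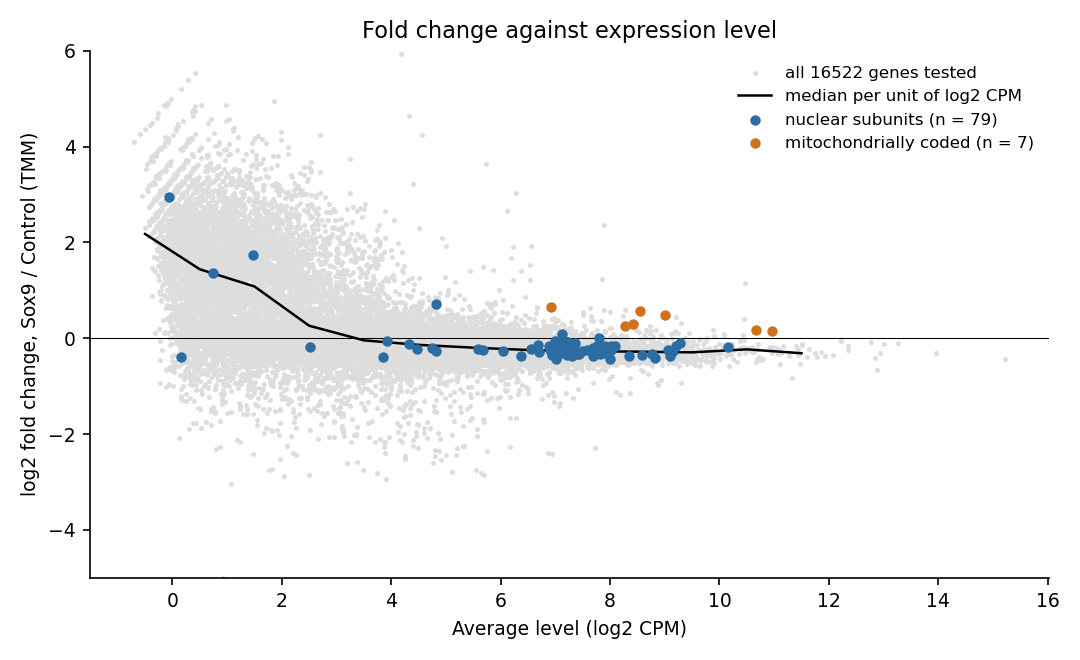
Log2 fold change between the Sox9 and control groups against the average level of each of the 16522 genes tested (grey; 10 genes lie outside the vertical axis), with the median per unit of log2 CPM as a line. Most nuclear subunits (blue) lie near the line, with exceptions such as *Ndufb2* (0.71) and *Cox7a1* (-0.39); the line falls from 2.18 at the lowest levels to about -0.29 at a log2 CPM of 9.5, and the 7 mitochondrial mRNAs (orange) lie above it; with library totals or cyclic loess in place of TMM the nuclear subunits center near 0.

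The size of the nuclear shift depended on scaling, since the median of the subunits was -0.25 with TMM but -0.02 with library totals alone, where the median of all genes moved to 0.23, and -0.02 with cyclic loess, which removes trends with expression level. Relative to the median of all genes tested it was -0.25 with TMM, -0.24 with library totals and -0.01 with cyclic loess. With library totals 35 of 79 genes were above 0, and with cyclic loess 31. As a share of all counts, the 83 genes took 1.49% ± 0.08 (SD, n = 3 control libraries) against 1.48% ± 0.15 (SD, n = 4 Sox9 libraries), a difference smaller than the spread within the groups.

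In complex I, values below 0 were found among both kinds of nuclear subunit. Of its 36 nuclear subunits, 35 were below 0 with TMM, with a median of -0.25. Of all genes with an average log2 CPM of 6 to 10, 89.6% were below 0. EdgeR called 0 higher and 1 lower (11.3% and 3.43% of all genes). An unadjusted p-value under 0.05 was found for 12 of 36 (44.0% of all genes), and DESeq2 called 4 lower (5.65% of all genes). The 7 core subunits, which carry the flavin and the iron-sulfur clusters from NADH to coenzyme Q, had a median of -0.30, and the 29 accessory subunits, which surround them, one of -0.25. *Ndufs7* (chr10:80249121-80256794), which holds the last iron-sulfur cluster before coenzyme Q, was at 152, 146 and 157 CPM in control and at 111, 113, 108 and 120 CPM in the Sox9 libraries. The 4 Sox9 values lay well below the 3 control values and close to each other, and the gene was called lower (log2 fold change -0.43 ± 0.11 (SE), adjusted p = 0.00897). That call was lost without any 1 of the 7 libraries and under 15 of 19 alternatives in all, with adjusted p-values up to 0.274, while its log2 fold change stayed between -0.52 and -0.18. *Ndufs1*, the largest core subunit, was at 165, 188 and 157 CPM against 127, 142, 131 and 133 CPM, without overlap (log2 fold change -0.35 ± 0.11 (SE), adjusted p = 0.0278). *Ndufv1*, which binds NADH, was at 267, 256 and 244 CPM against 177, 268, 225 and 248 CPM. Its values overlapped between the groups, and its log2 fold change of -0.16 (adjusted p = 0.394) had the opposite sign with library totals and cyclic loess.

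*Ndufb2*, an accessory subunit of complex I named after its values were seen, was the only nuclear subunit of complex I above 0 with TMM. It was at 19.0, 21.6 and 21.4 CPM in control and 40.0, 26.0, 30.5 and 39.2 CPM in the Sox9 libraries, without overlap, and just missed the threshold (log2 fold change 0.71 ± 0.18 (SE), adjusted p = 0.0107). Among the genes on the lower side, *Atp5f1*, a stalk subunit of complex V also named after its values were seen, came closest without passing (-0.42 ± 0.11 (SE), adjusted p = 0.0116).

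Complex II, the only complex without a mitochondrially coded subunit, had 4 of 4 genes with every Sox9 library below every control library, and edgeR called 0 of 4, with all 4 at an unadjusted p-value under 0.05, and DESeq2 called 1 lower (5.65% of all genes). Among all genes with an average log2 CPM of 6 to 10, where these 4 lie, 45.4% had no overlap on the lower side and 47.6% were lower at an unadjusted p-value under 0.05. *Sdha*, the flavoprotein that oxidizes succinate, was at 427, 466 and 421 CPM in control and 335, 405, 352 and 281 CPM in the Sox9 libraries (log2 fold change -0.35 ± 0.12 (SE), adjusted p = 0.0427). *Sdhb*, its iron-sulfur partner, was at 480, 502 and 492 CPM in control and 404, 426, 351 and 392 CPM in the Sox9 libraries (-0.32 ± 0.11 (SE), adjusted p = 0.0312). The membrane anchors *Sdhc* and *Sdhd*, added after their values were seen, had log2 fold changes of -0.28 and -0.34 (adjusted p = 0.0726 and 0.0477). Summed over the 4 genes, complex II was at 1228, 1295 and 1242 CPM in control and at 1014, 1095, 946 and 940 CPM in the Sox9 libraries, a ratio of means of 0.796. In the same sums, the ratio was 0.846 for complex I, 0.860 for III, 0.864 for IV and 0.849 for V, and only for complex IV did the groups overlap. Whether complex II differs from the others was not tested.

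All 8 nuclear subunits of complex III were below 0 with TMM, with a median of -0.18. EdgeR called 0, with 2 of 8 at an unadjusted p-value under 0.05 (44.0% of all genes), and DESeq2 called 1 lower (5.65% of all genes). *Uqcrc1* was at 670, 594 and 626 CPM in control and 561, 606, 528 and 548 CPM in the Sox9 libraries, and *Uqcrfs1* at 16.4, 16.3 and 13.02 CPM against 17.6, 12.7, 10.1 and 18.7 CPM. Both overlapped, and neither passed the test (adjusted p = 0.228 and 0.855), with signs that turned under library totals.

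Complex IV is the complex with most tissue-specific isoforms, and in every such set the ubiquitous form held nearly all of the level per length. *Cox4i1* made up 99.7% of its pair with *Cox4i2*, *Cox6b1* 99.7% of its pair with *Cox6b2*, *Cox7a2* 99.3% of its pair with the muscle form *Cox7a1*, *Cox7b* 96.3% of its pair with *Cox7b2*, *Cox8a* 99.2% of its set with *Cox8b* and *Cox8c*, and *Ndufa4* 99.9% of its pair with *Ndufa4l2*. *Cox6a2*, the muscle form of *Cox6a1*, had 0 counts in all 7 libraries, which allows up to 3 counts in each. The ubiquitous forms had log2 fold changes from -0.36 (*Cox7b*) to -0.00 (*Cox6a1*) with TMM, and those of *Cox6a1*, *Cox6b1* and *Cox8a* turned above 0 with library totals. *Cox4i1* was at 600, 547 and 607 CPM in control and at 584, 471, 361 and 556 CPM in the Sox9 libraries (adjusted p = 0.204), with the lowest value in Sox9 replicate 3.

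The rare isoforms of complex IV gave the only nuclear subunit called higher. *Cox7b2* (chr5:71442824-71548205), a form of *Cox7b* best known from testis, was counted 10, 11 and 15 times in control against 32, 31, 35 and 20 times in the Sox9 libraries. In CPM these were 0.956, 0.956 and 1.53 against 4.395, 2.93, 3.91 and 4.19, without overlap (log2 fold change 1.74 ± 0.40 (SE), adjusted p = 0.00595). Its level lies in the range in which 22.7% of all genes were called higher, its gene spans 105382 bases for an mRNA of 542, and whether reads in introns were counted is not stated. It lost the call under 10 of 19 alternatives, and with 1 library left out it kept the call only without control replicate 4 or Sox9 replicate 2. *Cox8c*, another testis form, was counted 1, 4 and 0 times in control against 13, 5, 17 and 5 times in the Sox9 libraries (adjusted p = 0.0127), and *Cox4i2*, the form linked to low oxygen, 8, 11 and 6 against 17, 22, 18 and 8 (adjusted p = 0.0302). Neither passed the threshold. *Cox7b2*, *Cox8c* and *Cox4i2* were the 3 members that passed the filter on low counts only through the Sox9 libraries, so a difference in that direction was built into their being tested, and their p-values carry this limit.

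Complex V had 15 of 16 nuclear genes below 0 with TMM, a median of -0.24. EdgeR called 0, with 6 of 16 at an unadjusted p-value under 0.05 (44.0% of all genes), and DESeq2 called 2 lower (5.65% of all genes). *Atp5c1*, the rotating shaft of the F1 part, was at 652, 629 and 614 CPM in control and at 528, 507, 398 and 516 CPM in the Sox9 libraries, without overlap and with a gap below the others in Sox9 replicate 3 (log2 fold change -0.38 ± 0.12 (SE), adjusted p = 0.0241). The subunits that form the catalytic ring overlapped between the groups: *Atp5a1* was at 1277, 1183 and 1220 CPM against 1011, 1211, 1071 and 1005 CPM, and *Atp5b* at 685, 586 and 660 CPM against 555, 604, 666 and 584 CPM. Their log2 fold changes of -0.19 and -0.10 (adjusted p = 0.181 and 0.532) turned above 0 with library totals. The membrane rotor is made of a protein coded by 3 genes, of which *Atp5g1* took 44.8% of their level per length, *Atp5g3* 41.6% and *Atp5g2* 13.6%. *Atp5g1* was at 132, 137 and 143 CPM in control and 117, 111, 112 and 120 CPM in the Sox9 libraries (log2 fold change -0.26, adjusted p = 0.0713), and *Atp5g3* at 152, 128 and 147 CPM against 145, 128, 127 and 143 CPM (-0.07, adjusted p = 0.675; above 0 with library totals). *Atp5g2* had a log2 fold change of -0.26 (adjusted p = 0.218).

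**Figure D3:**
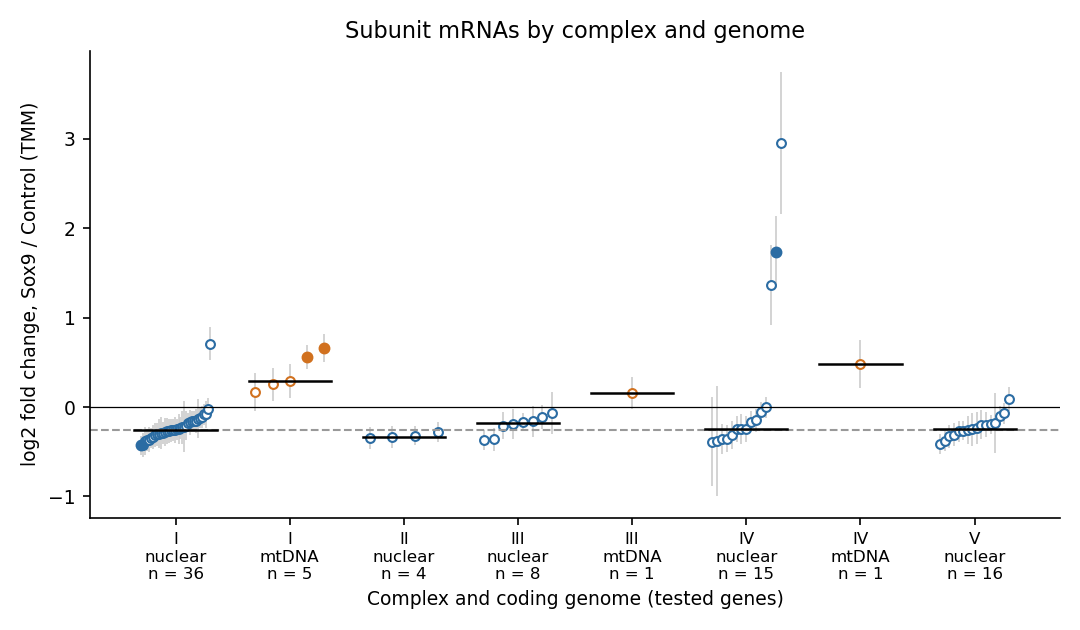
Log2 fold change with its standard error (grey bars) for each tested subunit gene, by complex and coding genome; filled points were called at an adjusted p-value under 0.01, black lines are medians and the dashed line is the median of all genes with an average log2 CPM of 6 to 10. With TMM scaling the nuclear medians lay between -0.33 and -0.18, near the dashed line at -0.26, and the median of all nuclear subunits moved to -0.02 with library totals or cyclic loess, whereas the 7 mitochondrial genes were above 0 under all 3.

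The contrast between the genomes does not depend on the scaling of libraries, because both sums come from the same library. The 83 nuclear subunit genes summed to 16270, 15980 and 16870 CPM in control and to 14730, 14080, 11890 and 14790 CPM in the Sox9 libraries. The 7 testable mitochondrial mRNAs summed to 3648, 5661 and 5052 CPM in control and to 5927, 5250, 4014 and 7517 CPM in the Sox9 libraries. The ratio of the mitochondrial to the nuclear sum was 0.224, 0.354 and 0.299 in control and 0.403, 0.373, 0.338 and 0.508 in the Sox9 libraries, or 0.293 ± 0.065 (SD, n = 3) against 0.405 ± 0.074 (SD, n = 4). The groups overlapped by 1 pair, since control replicate 2 was above Sox9 replicate 3. Gene by gene, the median of the 7 mitochondrial log2 fold changes minus that of the nuclear subunits was 0.54, and it lay between 0.37 and 0.68 under all 19 alternatives. The 2 mitochondrial rRNAs, which are no members, summed to 1034 to 1647 CPM in control and to 1306 to 2184 CPM in the Sox9 libraries, with overlap.

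**Figure D4:**
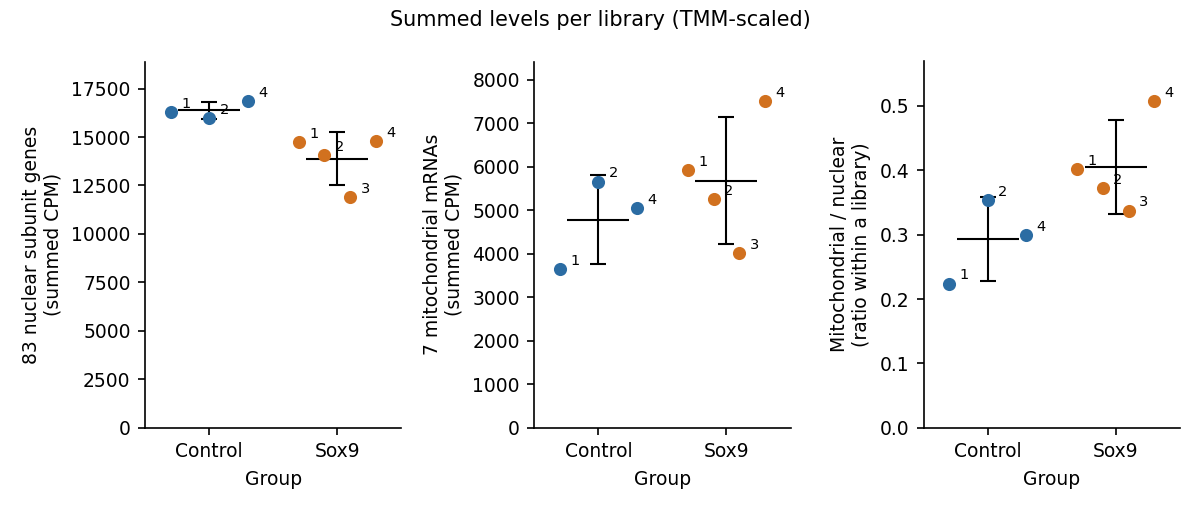
Summed TMM-scaled CPM of the nuclear subunit genes and of the 7 testable mitochondrial mRNAs, and their ratio, in each library (points with replicate numbers; bars are mean and SD, n = 3 and 4). The nuclear sums do not overlap under this scaling (as a share of all counts they do), the mitochondrial sums do, and the ratio overlaps only through control replicate 2 and Sox9 replicate 3.

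The Sox9 libraries did not carry the lower nuclear values equally. Over the 72 nuclear subunit genes with an average log2 CPM above 4, Sox9 replicate 3 was the lowest of the 7 libraries for 57. Its log2 level was below the mean of the other Sox9 libraries by a median of -0.49 for the 47 subunits with mRNAs shorter than 1 kb and -0.19 for the 25 longer ones. *Uqcrh*, the hinge protein of complex III, chosen here after its values were seen, was at 224, 224 and 244 CPM in control and at 257, 199, 135 and 236 CPM in the Sox9 libraries, so the other Sox9 values lay around those of control. Most OXPHOS subunits are small proteins, and across the 72 genes this deviation rose with mRNA length (Spearman's rho 0.51 across genes, which are not independent, in 1 library), with rho of -0.57 in Sox9 replicate 1, 0.47 in replicate 2 and -0.43 in replicate 4. Measured in the same way among the control libraries, rho was 0.39 in replicate 1, 0.0084 in replicate 2 and -0.37 in replicate 4. The deviations of a gene cancel out within its group, so a low value in 1 library raises those of the others. The rhos of a group are therefore not separate observations. Outside the OXPHOS genes, over 218 protein-coding genes of 6 to 10 average log2 CPM with mRNAs under 1 kb, Sox9 replicate 3 deviated by a median of -0.34, and over the 2753 longer ones by -0.032. Without Sox9 replicate 3 the median of the nuclear subunits was -0.12, with 10 of 78 above 0 and 0 called, while the 7 mitochondrial mRNAs had a median of 0.44 and 2 calls.

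**Figure D5:**
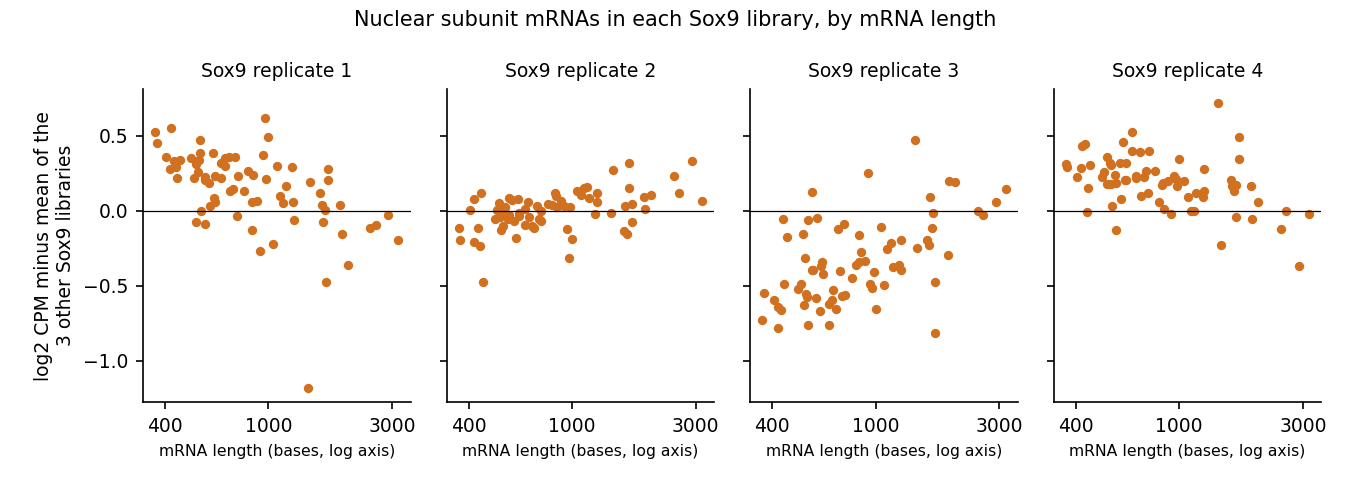
Log2 CPM of 72 nuclear subunit mRNAs in each Sox9 library minus the mean of the 3 other Sox9 libraries, against mRNA length (log axis). Relative to the other Sox9 libraries, short mRNAs are low in replicate 3 (median -0.49 under 1 kb) and high in replicates 1 and 4 (0.24 and 0.23). The deviations of a gene cancel out over the Sox9 libraries, so a low value in 1 raises those of the others.

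Of the 10 nuclear members that are assembly or supercomplex factors, 9 were below 0 with TMM. EdgeR and DESeq2 called 0 of them, and 4 had an unadjusted p-value under 0.05 (44.0% of all genes). *Cox7a2l*, which joins complexes III and IV into supercomplexes, was at 140, 152 and 137 CPM in control and 120, 114, 92.5 and 119 CPM in the Sox9 libraries (log2 fold change -0.36 ± 0.12 (SE), adjusted p = 0.0357). Of 43 tested assembly factors and chaperones with other symbols, edgeR called 0, with 18 at an unadjusted p-value under 0.05 (44.0% of all genes) and a median of -0.26, and DESeq2 called 2 lower (5.65% of all genes).

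Lists of other mitochondrial genes were read against the same background, 3.43% of all genes called lower and 8.08% of those with an average log2 CPM of 6 to 10, and 11.3% of all genes called higher. Among 76 mitochondrial ribosomal protein genes, which serve translation of the 13 mitochondrial mRNAs, 3 were lower and 0 higher, with a median of -0.30, and the 3 were *Mrps14* (log2 fold change -0.62, adjusted p = 0.00456), *Mrpl35* (-0.53, adjusted p = 0.00496) and *Mrpl21* (-0.52, adjusted p = 0.00745). These calls were lost under 13, 15 and 15 of 19 alternatives. Among 31 genes of mtDNA maintenance and mitochondrial RNA, 1 was lower, *Ssbp1*, the single-strand binding protein of mtDNA, which was at a mean of 82.5 CPM ± 5.9 (SD, n = 3 control libraries) against 49.3 ± 8.5 (SD, n = 4 Sox9 libraries) (log2 fold change -0.75, adjusted p = 0.00267). Among 27 genes of the tricarboxylic acid cycle and pyruvate dehydrogenase, 2 were lower, *Suclg2*, a subunit of succinyl-CoA synthetase (-2.03, adjusted p = 0.00400), and *Pdp2*, a phosphatase that activates pyruvate dehydrogenase (-0.51, adjusted p = 0.00462). Among 33 genes of import, porins and membrane organization, *Tomm40*, the import pore of the outer membrane, was higher (1.78, adjusted p = 0.000697) and *Slc25a5*, an ADP/ATP carrier, lower (-0.56, adjusted p = 0.00435). Among 21 electron carriers and coenzyme Q enzymes, 1 was higher, *Cyct*, the testis cytochrome c, at a mean of 0.219 CPM in control and 1.496 CPM in the Sox9 libraries, a level at which 22.7% of all genes were called higher. It passed the filter only through the Sox9 libraries. Calls were also lost for *Pdp2* under 13, *Slc25a5* under 11, *Ssbp1* under 8 and *Tomm40* under 1 of 19 alternatives, for *Suclg2* under 10 of 18 and for *Cyct* under 9 of 15. DESeq2 called more genes lower (5.65% of all genes): 9 of 76 ribosomal protein, 5 of 31 mtDNA and mitochondrial RNA, and 6 of 28 tricarboxylic acid cycle genes. It also called 5 of 33 import genes and 3 of 21 electron carriers lower, and 1 import gene higher (8.75% of all genes). Medians of these lists lay between -0.35 and -0.28, below the median of -0.26 of all genes with an average log2 CPM of 6 to 10. Many genes of these lists are weaker than that range. At a log2 CPM of 5.5 the median of all genes tested was -0.196, and at 4.5 it was -0.138. No background matched in level was computed for the lists.

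Regulators of mitochondrial biogenesis were called in both directions. Of 17 tested, 3 were higher and 1 lower. *Nfe2l2*, the NRF2 factor of the oxidative stress response, was at a mean of 14.2 CPM ± 3.8 (SD, n = 3 control libraries) against 3.80 ± 2.1 (SD, n = 4 Sox9 libraries) (log2 fold change -1.89, adjusted p = 0.00188). *Ppara*, a receptor that drives fatty acid oxidation, was at 0.970 CPM against 5.06 (2.37, adjusted p = 0.00240), and the coactivator *Ppargc1b* at 0.557 CPM against 2.77 (2.28, adjusted p = 0.00551). The third gene called higher, which the naming rule does not include, was the receptor *Ppard* (2.07, adjusted p = 0.00608). The call was lost for *Nfe2l2* under 5 of 19 alternatives, for *Ppara* under 3 of 18 and for *Ppargc1b* under 9 of 18. All 3 genes called higher lie in the range of weak expression, an average log2 CPM under 2, in which 22.7% of genes were called higher, and they passed the filter only through the Sox9 libraries, where they are high.

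Promoters of nuclear subunits were searched for letters of known factor sites, with no test of enrichment. RefSeq promoter windows (GRCm38.p6, 250 bases before to 50 after the start) were found for 67 of the 83 genes. The core of the site of NRF1, a factor known to act on respiratory genes, was searched on both strands as GCGCA, any 1 base and GCGC and was present for 17 of 67 (25.4%), against 5.19% of all 27025 genes with such a window and 15.4% of the protein-coding genes tested with an average log2 CPM of 6 to 10. The letters AAGATGGC, a core of the YY1 site, were found for 14.9%, against 3.19% and 8.01%. CCGGAAG, a core of ETS sites, was found for 23.9%, against 9.93% and 26.0%, and TNAAGGTCA, a core of the site of estrogen-related receptors, for 4.48%, against 1.43% and 0.945%. Searched motifs may overlap, and a match describes letters only. In the 30-base windows below, capitals mark the NRF1 letters in genes of complexes II and V, which are shown as examples, chosen after the values were seen, from genes described above with no overlap between the groups. *Atp5h*, *Atp5o* and *Atp5g2* of complex V also held a match and had no overlap, and their windows are not shown. Matches were also held by genes whose groups overlapped, such as *Cox6a1*, *Atp5g3*, *Uqcrc1*, *Ndufb4* and *Ndufa8*. Whether a match goes with the fold change was not tested. *Sdha* held 3 matches, 98, 55 and 10 bases before its start (chr13:74350319-74350348, chr13:74350276-74350305 and chr13:74350231-74350260, minus strand), *Sdhd* 1, 79 bases before (chr9:50603909-50603938, minus strand), and *Atp5c1* 1, 17 bases before (chr2:10080430-10080459, minus strand).
Sdha, 98 bases before its start: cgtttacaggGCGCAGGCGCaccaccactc
Sdha, 55 bases before its start: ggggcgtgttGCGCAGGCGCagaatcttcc
Sdha, 10 bases before its start: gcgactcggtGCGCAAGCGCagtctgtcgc
Sdhd: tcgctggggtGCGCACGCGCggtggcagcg
Atp5c1: ctgagctcccGCGCACGCGCactgagtccc

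Levels of the 2 genomes cannot be set side by side in the deposited FPKM values. For 84 nuclear members, the length that links counts to FPKM was computed with the mitochondrial genes, which have no introns, as the scale. It lay within 2% of the whole gene span, introns included, for 77 and within 2% of the exonic length for 0, and the span was 8.69 times the mRNA length at the median. By FPKM *mt-Nd1* was 386 times as high as *Ndufs1* and by CPM per kb of mRNA 29.6 times, and *mt-Cytb* was 19.95 times as high as *Cox4i1* by FPKM and 2.46 times by CPM per kb. Comparisons of 1 gene between libraries are not touched by this length.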

How the data were processed

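The authors sequenced cDNA of 7 libraries, 3 control and 4 labelled Sox9. Groups and replicate numbers follow the sample titles. The authors combined lanes, trimmed adapters with cutadapt, aligned 75-base reads to mm10 with STAR (2.5.2b per the submitters' processing notes, which also name bcl2fastq 2.17.1.14 and build GRCm38), and deposited raw counts per Ensembl gene. The counting program, its strand setting and its treatment of reads with several alignments are not given in the sources used here. The authors also deposited FPKM values, which were used as an alternative and for the length check. PCR reads carried no molecular identifiers.

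Symbols, biotypes and coordinates came from GENCODE M21 (GRCm38), which matched 36345 of 38124 identifiers. All genes were fitted together in edgeR 4.0.16 (R 4.3.3): filterByExpr defaults, TMM, quasi-likelihood test, two-sided, no covariate, with Benjamini-Hochberg adjustment over 16522 genes and a threshold of 0.01. The SE of a log2 fold change is its size over the square root of F. CPM are TMM-scaled. mRNA length is that of the principal APPRIS transcript with the best support, the shortest of ties. DESeq2 1.42.0, limma 3.58.1 and other scalings and filters were alternatives. The fit was also run on simulated counts with known changes. These lacked the shift with expression level seen in the data, so that run says nothing about this shift. Library totals were compared by an exact permutation test.

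The members and lists were chosen with earlier results of these data known. Named genes were all mitochondrial members, a fixed subunit set from the center of each complex, isoform sets, every called member, up to 3 called genes per pathway list with the smallest p-values, and the highest member of each complex per length. One gene that this rule names is not reported here. Other genes named were chosen after their values were seen. Python 3.11.15 was used for summaries and plots.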

Additional observations from a re-analysis of the deposited data

Results flagged for a closer look

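In 4 of the 59 sets of 4 Sox9 values examined, 1 library stood apart from the other 3 by more than Dixon's 95% critical value for the gap over the range, where chance alone gives about 1 in 20 groups. *Atp5c1* was at 398.2 CPM in Sox9 replicate 3, with the next value at 506.6 CPM. The summed level of the nuclear complex V genes was 4060 CPM in Sox9 replicate 3, with the next at 4574 CPM. *Mrpl21* was at 49.63 CPM in Sox9 replicate 3, with the next at 58.79 CPM. *Cox7a1*, the muscle form of *Cox7a2*, was at 1.258 CPM in Sox9 replicate 4, with the next at 0.687 CPM, values that rest on few counts. In 3 of the 4 sets the library that stood apart was Sox9 replicate 3, whose short nuclear mRNAs were also low.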

How the results depend on the processing

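Of 896 values of 48 named genes under 19 alternatives, 662 kept their direction and their side of the threshold, 157 lost the call, 11 gained it and 66 changed sign, in 13 genes. The median of the nuclear subunits was -0.017 with library totals, -0.024 with cyclic loess, -0.036 with log2(FPKM + 0.1), -0.028 with log2(FPKM + 1) and -0.036 with FPKM unfiltered, and that of the mitochondrial mRNAs was 0.64 with FPKM unfiltered. Calls of nuclear subunits (higher, lower) were 1 and 8 with DESeq2, 1 and 2 with its size factors in edgeR, 3 and 0 with library totals, 0 and 0 with cyclic loess, 2 and 7 without a filter, 2 and 0 with at least 10 counts in every library, 2 and 0 with log2(FPKM + 0.1), 1 and 0 with log2(FPKM + 1), 0 and 0 with FPKM unfiltered, and 4 and 11 at an adjusted p-value under 0.05. Mitochondrial mRNAs called higher were 1 with DESeq2, 1 with log2(FPKM + 0.1) and 0 with the other FPKM settings. With 1 library left out, these calls were 0 to 3, 0 to 0 and 0 to 2, and the medians -0.28 to -0.12 and 0.10 to 0.44. The cause of these changes was not tested.

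With a replicate block by the numbers in the titles or the descriptions, 0 nuclear subunits were called higher, 0 lower and 0 mitochondrial mRNAs higher. By titles, deviations of samples with the same number from their group means had correlations of -0.036, 0.118 and -0.0049. By descriptions, the third pair had 0.017. Samples with different numbers were not compared, so these values cannot decide whether the numbers pair the samples. The block turned *Uqcrfs1* (0.074, titles), *Cox6a1* (0.032, descriptions) and *mt-Nd1* (-0.056, descriptions).

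Log2 fold changes of uncalled genes that changed sign were, with library totals, *Atp5g3* 0.16, *Cox6a1* 0.22, *Cox6b1* 0.064, *Uqcrc1* 0.061, *Atp5b* 0.13, *Uqcrq* 0.024, *Uqcrfs1* 0.17, *Atp5a1* 0.037, *Ndufv1* 0.071 and *Cox8a* 0.18. With cyclic loess they were *Atp5g3* 0.18, *Cox6a1* 0.25, *Cox6b1* 0.085, *Cox5a* 0.061, *Uqcrc1* 0.099, *Atp5b* 0.17, *Uqcrq* 0.024, *Atp5a1* 0.079, *Ndufv1* 0.084 and *Cox8a* 0.19. With at least 10 counts in every library they were *Atp5g3* 0.067, *Cox6a1* 0.13, *Atp5b* 0.043, *Uqcrfs1* 0.070 and *Cox8a* 0.085. With log2(FPKM + 0.1), filtered or not, they were *Atp5g3* 0.16, *Cox6a1* 0.23, *Cox6b1* 0.054, *Cox5a* 0.24, *Uqcrc1* 0.059, *Atp5b* 0.13, *Uqcrfs1* 0.14, *Atp5a1* 0.033, *Ndufv1* 0.055 and *Cox8a* 0.18. With log2(FPKM + 1) they were *Atp5g3* 0.16, *Cox6a1* 0.22, *Cox6b1* 0.053, *Cox5a* 0.050, *Uqcrc1* 0.058, *Atp5b* 0.13, *Uqcrfs1* 0.11, *Atp5a1* 0.033, *Ndufv1* 0.055 and *Cox8a* 0.17. With 1 library left out, genes whose sign changed ranged from -0.091 to 0.088 for *Cox6a1*, -0.85 to 1.03 for *Cox5a*, -0.15 to 0.11 for *Uqcrfs1* and -0.0088 to 0.31 for *mt-Cytb*. Low counts limit the rare isoforms.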
